A study of Mus musculus with 6 samples.

Results

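The receptor subunits for IL-3, IL-5 and GM-CSF were followed in mouse eosinophils exposed to TH2 cell extracellular vesicles (EVs). They are 5 genes, Csf2rb, Csf2rb2, Csf2ra, Il3ra and Il5ra, which were taken by symbol from a table of 16254 genes and were all found there. Eosinophils of C57BL/6 genotype had been grown from the bone marrow of mice aged 6 to 12 weeks with FLT3 ligand and stem cell factor and then with IL-5, a ligand of these receptors. They were cultured for 24 h either with EVs at 5e9 per ml, purified by size exclusion chromatography and ultrafiltration from TH2 cells restimulated through the T-cell receptor, or with an equal volume of unconditioned media carried through the same purification (sham). Libraries of poly(A) RNA were made from 3 biological replicates under each treatment. The sources used here do not say whether IL-5 was present during the 24 h.

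A receptor of this family is built from an α chain, which binds the ligand, and a β chain, which carries the signal. Il5ra, Il3ra and Csf2ra encode the α chains for IL-5, IL-3 and GM-CSF. Csf2rb encodes the common β chain that all of these α chains share, and Csf2rb2 encodes a second mouse β chain that pairs with the IL-3 α chain alone. The β chains carry the kinase JAK2, which activates STAT5, and they also feed the RAS-MAPK and PI3K-AKT routes. In eosinophils this signaling is known for supporting differentiation and survival, and feedback inhibitors of the CIS and SOCS families restrain it.

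The β chain genes are close relatives and neighbors, which bears on how their reads are counted. In GRCm38 (mm10), Csf2rb2 lies at chr15:78282507-78305721 on the minus strand and Csf2rb at chr15:78325752-78353847 on the plus strand, so that the genes point away from each other across a gap of 20030 bases. Their longest coding transcripts each have 14 exons, and the coding parts, 2688 bases in Csf2rb and 2634 bases in Csf2rb2, were identical at 2503 of 2628 aligned bases (95.2%). The 60 aligned bases that differ the most lie in exon 4 of both genes, at chr15:78338893-78338952 on the plus strand for Csf2rb and at chr15:78294379-78294438 on the minus strand for Csf2rb2. They are shown because reads over such bases tell the genes apart, with the 13 differing bases in capitals.
Csf2rb: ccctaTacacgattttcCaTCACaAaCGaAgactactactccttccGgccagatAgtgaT
Csf2rb2: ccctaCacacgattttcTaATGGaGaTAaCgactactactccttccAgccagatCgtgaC
At the other extreme, an aligned run of 242 bases in exon 14 was the same in both genes. Of all 31-base words in the transcripts of each gene, 18.8% of those of Csf2rb and 28.6% of those of Csf2rb2 also occurred in the other gene, and a read from such a stretch was divided between the genes by the authors' quantifier. Values of the pair are therefore given singly and as a sum. The α chain genes are scattered over the genome, with Csf2ra at chr19:61223957-61228429 (minus strand), Il3ra at chr14:14346275-14356011 (plus strand) and Il5ra at chr6:106710357-106749037 (minus strand). They shared 0.443%, 0.526% and 4.30% of their words with any other gene.

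Libraries held between 23697620 and 37874426 estimated counts, and each of the 5 genes had at least 950 counts in every library. Levels are counts per 1000000 counts (CPM) scaled between libraries with edgeR's TMM method. The quasi-likelihood test of edgeR compared the groups over 13498 genes, with Benjamini-Hochberg adjustment and a call at an adjusted p under 0.01. All 9 eosinophil markers examined, among them Epx, Prg2 and Siglecf, were detected, with a summed level of 29977 to 37801 CPM in sham- and 42856 to 47956 CPM in EV-treated cells. Of these 9, 7 were called higher with EVs. For comparison with the marker counts, 12.1% of all genes tested were called higher and 11.6% lower. Markers of other cells moved too. Of 8 macrophage or monocyte markers, 5 were called lower and 2 higher (sums of 1679 to 2054 CPM in sham and 2187 to 2371 CPM with EVs), of 8 neutrophil markers 5 were lower and 2 higher (648 to 778 and 607 to 729 CPM), and of 5 tested mast cell or basophil markers 4 were higher (55.9 to 87.4 and 195 to 248 CPM). T cell markers summed to 10.9 to 27.1 CPM in sham and 1.94 to 3.92 CPM with EVs, with 1 of 2 tested markers called lower (2 without sham replicate 1). Most of the sham sum was the marker called lower, Cd28, with means of 18.1 CPM in sham and 1.37 CPM with EVs. The other tested marker, Cd3d, had means of 1.24 and 1.57 CPM and was not called. Both were named after their values were seen. Of the dendritic cell markers, summing to 160 to 181 and 169 to 207 CPM, none of 4 tested was called, and of 5 progenitor markers, summing to 75.8 to 86.0 and 62.8 to 69.0 CPM, 1 was called lower. None of the markers in the table was at 0 in all 6 libraries, although the mast cell marker Tpsb2 had at most 3 counts in each. The part of these cells in the receptor values was not tested. In RNA from whole cultures, a change in the number of cells of a type cannot be told apart from a change in RNA per cell.

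Both β chain genes rose with EVs, and the α chain genes moved little. Csf2rb stood at 1862, 1789.8 and 1817 CPM in the sham-treated replicates 1 to 3 and at 4469.5, 4787 and 5308 CPM in the EV-treated replicates. The lowest EV-treated library was far above the highest sham-treated one, and the replicates within a group differed little by comparison. This gene rose 2.66-fold (95% confidence interval 2.41 to 2.94, log2 fold change 1.41, SE 0.0641, adjusted p = 2.21e-07). Csf2rb2 stood at 1014, 976 and 999.6 CPM in sham and at 1935, 2136 and 2296 CPM with EVs, again with no overlap. Its rise was 2.13-fold (1.93 to 2.35, log2 fold change 1.09, SE 0.0646, adjusted p = 1.17e-06). With the counts of the pair summed to 1 gene, which takes the division of shared reads out of the comparison, the log2 fold change was 1.31 (adjusted p = 3.24e-07).

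Csf2ra, the α chain for GM-CSF, showed a small difference. Its levels were 179, 195 and 173 CPM in sham and 215, 214 and 231 CPM with EVs, so the groups did not overlap but came close. The fold was 1.21 (1.09 to 1.33, log2 fold change 0.27, SE 0.0656) and the adjusted p of 0.00935 fell just inside the threshold. Leaving out sham replicate 1 or 3 or any of the EV replicates ended the call, with an adjusted p of 0.0127 to 0.0472, whereas without sham replicate 2 it was 0.00497. Without TMM scaling, where the median over all genes was itself shifted to -0.16, the log2 fold change of Csf2ra was 0.12 (adjusted p = 0.172), which is 0.28 above that median, as in the scaled comparison.

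The α chains for IL-3 and IL-5 did not pass the test in either direction. Il3ra stood at 46.1, 47.9 and 37.4 CPM in sham and at 37.9, 36.8 and 40.8 CPM with EVs, where sham replicate 3 lay among the EV-treated libraries. The log2 fold change was -0.19 (95% confidence interval -0.42 to 0.04, adjusted p = 0.191). Il5ra, which marks the eosinophil lineage, stood at 106, 91.5 and 102 CPM in sham and at 91.5, 92.0 and 87.8 CPM with EVs, and the groups overlapped. Its log2 fold change was -0.14 (-0.30 to 0.02, adjusted p = 0.155). These intervals leave room for a fall to 0.75-fold in Il3ra and to 0.812-fold in Il5ra, and reach no higher than 1.03-fold and 1.01-fold. Without TMM scaling, Il5ra was called lower (log2 fold change -0.29, adjusted p = 0.00869), but relative to the median of all genes its difference was then -0.13, the same as in the scaled comparison.

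**Figure D1:**
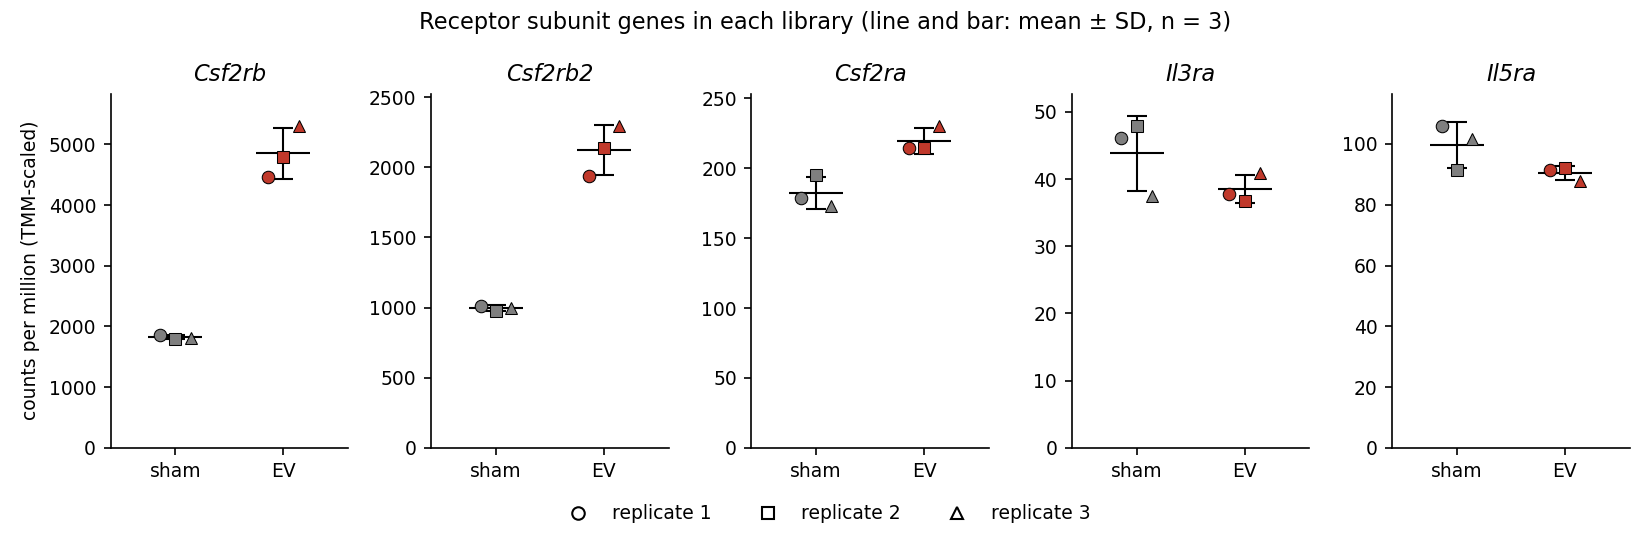
Level in TMM-scaled CPM of each receptor subunit gene in the 3 sham- and 3 EV-treated libraries, each panel with its own axis from 0; symbols mark replicates, and lines with bars the mean ± SD. Csf2rb lies at 1789.8 to 1862 in sham and 4469.5 to 5308 with EVs, while the groups overlap for Il3ra and Il5ra.

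Over the 5 genes, 3 were called higher, 2 were not called and none was called lower. The same test called 12.1% of all genes higher (1632 of 13498) and 11.6% lower (1572), and without EV replicate 3 these counts were 1071 and 1018, with 1044 lower without EV replicate 2. Without TMM scaling the calls split into 1036 higher and 2342 lower, and with upper quartile scaling into 1369 and 1755. For the same 3 of the 5 genes every EV-treated library lay above every sham-treated one, and for none below, against 24.8% and 24.7% of all genes. The median log2 fold change was 0.27 over the 5 genes and -0.01 over all genes. Of all genes, 97.2% had a lower log2 fold change than Csf2rb, 95.3% a lower one than Csf2rb2 and 75.9% a lower one than Csf2ra, against 38.4% for Il5ra and 35.2% for Il3ra. Genes with a call and a log2 fold change of at least 1 made up 3.1% of all genes, and of the subunits Csf2rb and Csf2rb2 were among them.

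**Figure D2:**
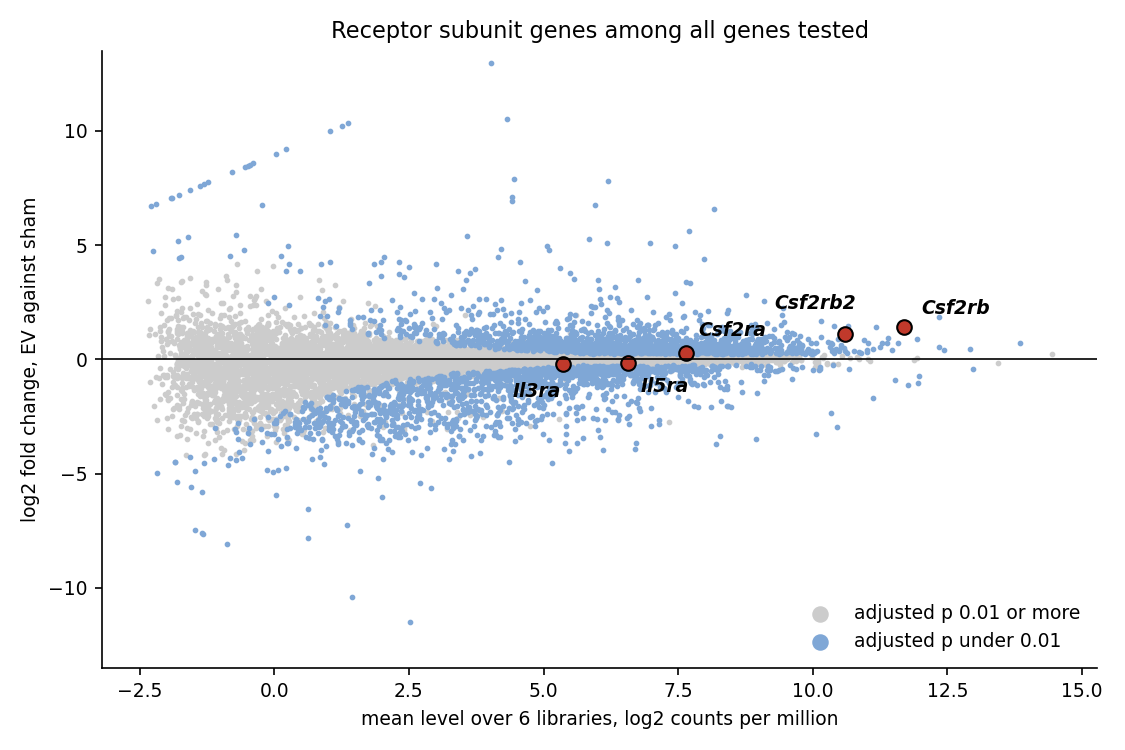
Log2 fold change, EV against sham, plotted against the mean log2 CPM over 6 libraries for all 13498 genes tested, with genes called at an adjusted p under 0.01 in blue, others in gray and the subunit genes in red. Csf2rb (1.41) and Csf2rb2 (1.09) lie above 0 at the high end of the level axis, and Il3ra and Il5ra lie within the gray band just below 0.

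To set the subunits against each other, levels were divided by the length of the longest coding transcript, giving CPM per kilobase. The order was the same in both groups. In sham-treated cells it ran from Csf2rb at 372 ± 7.40 CPM per kilobase (SD, n = 3) through Csf2rb2 at 210.2 ± 4.05, Csf2ra at 98.6 ± 6.26 and Il5ra at 27.9 ± 2.08 to Il3ra at 18.9 ± 2.43. With EVs the levels were 991 ± 86.4 for Csf2rb, 448 ± 38.2 for Csf2rb2, 119 ± 4.99 for Csf2ra, 25.3 ± 0.630 for Il5ra and 16.6 ± 0.906 for Il3ra. No neighbors in this order overlapped in any library of a group, and the order was kept when coding length replaced transcript length. Among 13921 genes with a length, Csf2rb was 129th by level per length in sham and 39th with EVs. Csf2rb2 was 232nd and then 117th, Csf2ra 527th and 501st, Il5ra 2176th and 2507th, and Il3ra 3184th and 3615th.

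On this scale of CPM per kilobase, transcripts for β chains outnumbered those for α chains in both groups, and did so by more with EVs. The sum of the β chain levels was 4.06, 3.76 and 4.21 times the sum of the α chain levels in sham replicates 1 to 3 and 8.36, 9.06 and 9.39 times in the EV replicates. The β chains made up 80.0% ± 0.930 of the summed level of the 5 genes in sham and 89.9% ± 0.547 with EVs. The rise in that share lay in Csf2rb, which went from 51.1% ± 0.534 to 61.9% ± 0.457, while Csf2rb2 made up 28.9% ± 0.409 and 28.0% ± 0.410. Among the α chains, Csf2ra made up 67.8% ± 1.72 of the summed level in sham and 73.9% ± 0.686 with EVs. Il5ra made up 19.2% ± 2.08 and 15.7% ± 0.889, and Il3ra 13.0% ± 1.12 and 10.3% ± 0.242. These shares describe transcripts and not receptor complexes on the cell. They also depend on the length used, which their SD does not cover. Divided by coding length, the α chain levels in sham were 157 CPM per kilobase for Csf2ra, 80.1 for Il5ra and 36.9 for Il3ra. With EVs they were 189, 72.6 and 32.4. On that length Csf2ra made up a smaller part of the α chain sum than given above, and Il5ra a larger one.

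Ratios of counts within a library do not depend on the scaling between libraries, and 5 such ratios were compared. Their difference was tested with an exact two-sided permutation test, for which 3 against 3 samples allow no p below 0.1. The log2 ratio of Csf2rb to Csf2rb2 was 0.88, 0.87 and 0.86 in sham and 1.21, 1.16 and 1.21 with EVs. It varied little within a group and did not overlap between the groups. The difference of 0.32 means that the fold change of Csf2rb was 1.25 times that of its neighbor. This ratio also depends on how the quantifier divided the reads that the genes share. The ratio of Csf2rb to Csf2ra differed by 1.14 on the log2 scale, from 3.32 ± 0.110 in sham to 4.46 ± 0.0742 with EVs. Against the α chains that did not pass the test, Csf2rb gained 1.59 relative to Il3ra (5.39 ± 0.195 and 6.98 ± 0.0801) and 1.55 relative to Il5ra (4.20 ± 0.0835 and 5.74 ± 0.158). Csf2rb2 gained 1.27 relative to Il3ra, its partner in the IL-3 receptor (4.52 ± 0.202 and 5.78 ± 0.0951). The groups did not overlap for any of the 5 ratios, and each had the smallest exact p the design allows, 0.1, which stayed 0.1 after adjustment over the 5. Every ratio has a β chain gene that rose as its numerator. The differences restate those between the log2 fold changes given above, so the 5 ratios are not separate results.

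**Figure D3:**
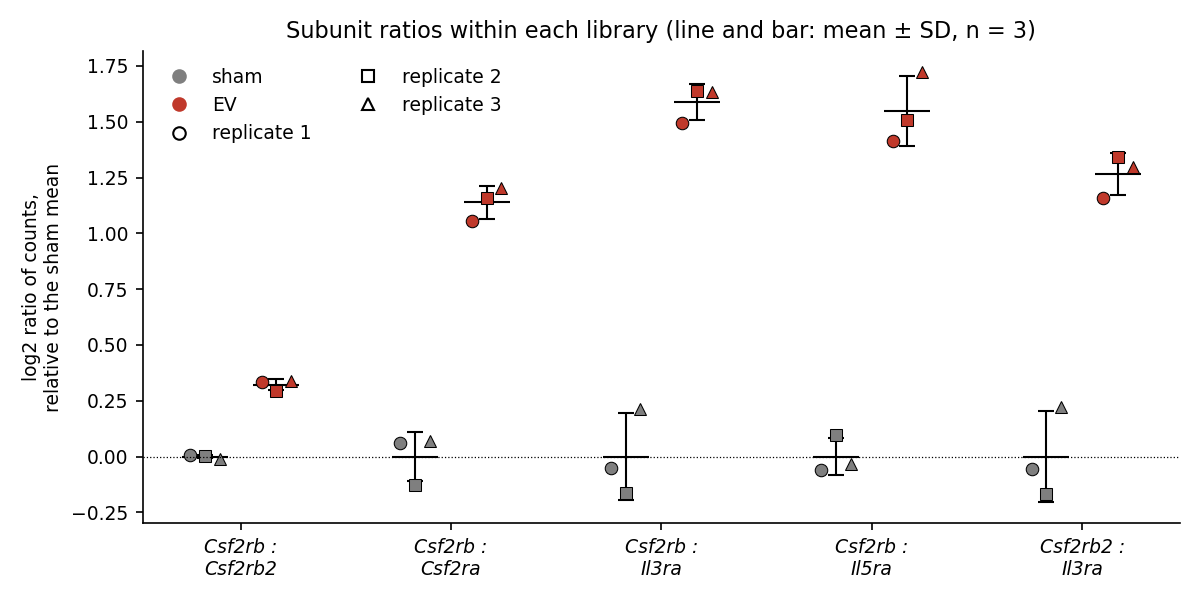
Log2 ratio of counts between subunit genes within each library, relative to the sham mean of the same ratio; gray symbols are sham, red are EV-treated, shapes are replicates, and lines with bars are the mean ± SD. EV-treated libraries lie above sham for all 5 ratios, by 0.32 for Csf2rb to Csf2rb2 and by 1.14 to 1.59 for the ratios of a β to an α chain.

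None of the 4 tested genes around the β chain pair on chromosome 15 was called higher, beside 12.1% of all genes. Tst was called lower, beside 11.6% of all genes. With 4 genes, these counts cannot be told apart from those shares. The 3 nearest annotated protein-coding genes on the side of Csf2rb2 were Ncf4, Pvalb and Ift27, and on the side of Csf2rb Tex33, Tst and Mpst. Ncf4, which encodes a subunit of the phagocyte NADPH oxidase, stood at 331, 293 and 298 CPM in sham and 303, 312 and 357 CPM with EVs (log2 fold change 0.08, 95% confidence interval -0.09 to 0.25, adjusted p = 0.484), with a negative sign when no scaling factor was used. Tst, encoding the sulfurtransferase rhodanese, was called lower, from 11.8, 10.3 and 11.6 CPM to 5.67, 5.31 and 6.57 CPM (log2 fold change -0.94, adjusted p = 0.00122). Mpst, a related sulfurtransferase gene, was not called (-0.24 on the log2 scale, adjusted p = 0.0592), nor was Ift27, of intraflagellar transport (0.38, adjusted p = 0.266). Pvalb and Tex33 were not among the 16254 genes with counts and could not be analysed.

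The promoter windows of the subunit genes, the 250 bases before each start in RefSeq (GRCm38), were searched on both strands for 3 short motifs. RefSeq windows were matched for 4 of the genes, Csf2rb2, Csf2ra, Il3ra and Il5ra. Windows for Csf2rb2, which rose, and Il5ra, which was not called, are shown with the matches in capitals, to be read beside the changes given above. The Csf2rb2 window is chr15:78305722-78305971 on the minus strand and the Il5ra window chr6:106749038-106749287 on the minus strand.
Csf2rb2: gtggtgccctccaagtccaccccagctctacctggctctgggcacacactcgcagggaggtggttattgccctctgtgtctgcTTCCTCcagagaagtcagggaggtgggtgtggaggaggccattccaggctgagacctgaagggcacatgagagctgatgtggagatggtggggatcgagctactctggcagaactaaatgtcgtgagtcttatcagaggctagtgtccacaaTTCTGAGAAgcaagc
Il5ra: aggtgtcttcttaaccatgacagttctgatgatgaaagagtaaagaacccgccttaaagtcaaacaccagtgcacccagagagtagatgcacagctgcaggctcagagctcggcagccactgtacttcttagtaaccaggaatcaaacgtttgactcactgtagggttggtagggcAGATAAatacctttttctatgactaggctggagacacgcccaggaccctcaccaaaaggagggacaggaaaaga
The window of Csf2rb2 held the STAT motif TTCNNNGAA as TTCTGAGAA, from 15 to 7 bases before the start, a motif found in 7.02% of 32851 promoter windows of this length. It also held the ETS core GAGGAA, which PU.1 sites contain, on the opposite strand from 167 to 162 bases before the start. The Csf2ra window (64.8% G and C) held 2 adjoining copies of GAGGAA between 14 and 3 bases before the start, and 23.3% of all windows held this core. In the Il5ra window the GATA motif AGATAA lay 74 to 69 bases before the start, against 9.99% of all windows with a match. None of these letters was found in the Il3ra window, which is 72.4% G and C. That window, chr14:14346245-14346494 on the plus strand, lies mostly inside the gene as placed above, from 14346275. Its lack of a match therefore does not describe the bases before that gene start. The Csf2ra window, chr19:61228419-61228668 on the minus strand, also overlaps the gene as placed above, which ends at 61228429. The 2 copies of GAGGAA lie partly in that overlap. The matched motifs do not overlap each other, and a match describes letters only.

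The other parts of the pathway are given by role. The ligands Il3, Il5 and Csf2 were not among the 16254 genes with counts and could not be analysed. Whether genes had been filtered out beforehand is not known. Among 59 tested genes of the kinases, STAT factors, adaptors, PI3K-AKT, inhibitors and target genes, 31 were called higher, 4 lower and 24 neither. Over all genes, 12.1% were called higher and 11.6% lower. The median log2 fold change was 0.33 in the 59 genes beside -0.01 over all genes. The share called was highest among the target genes, with 11 of 12, and the inhibitors, with 9 of 11.

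Of 8 receptor-proximal kinases, 4 were called higher and none lower. Jak2, encoding the kinase bound by the β chains, stood at 179.6, 173 and 169 CPM in sham and 469, 466 and 454 CPM with EVs. Its rise of 2.66-fold (log2 fold change 1.41, SE 0.0535, adjusted p = 6.44e-08) was of the same size as that of Csf2rb on the log2 scale, a similarity that was not tested. Jak1, encoding the kinase of the γ chain and gp130 receptors, was 461, 419.7 and 452 CPM in sham and 440.0, 458 and 464 CPM with EVs (log2 fold change 0.03, adjusted p = 0.708), negative in 3 of 14 alternative analyses. Btk (0.76) and Fes (0.43), encoding cytoplasmic tyrosine kinases, were the next most changed on the log2 scale. Stat3, encoding a further STAT factor, was called higher (log2 fold change 0.30, adjusted p = 0.00329), a call lost without a scaling factor (adjusted p = 0.0577) and without sham replicate 2, EV replicate 2 or EV replicate 3 (0.0111 to 0.0209). The genes of the factor that JAK2 activates did not pass, with Stat5a at 0.08 (-0.08 to 0.24), of negative sign without a scaling factor, and Stat5b at -0.10 (-0.25 to 0.05). Their transcript levels do not measure how much STAT5 was phosphorylated.

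The adaptor and RAS-MAPK genes differed by small amounts. Of 15, 5 were called higher and none lower, among them the scaffold gene Gab2 (log2 fold change 0.36) and the adaptor gene Grb2 (0.33). Both lost their call without a scaling factor, and Gab2 also without sham replicate 3, EV replicate 2 or EV replicate 3 (adjusted p = 0.0101 to 0.0121). The number called was 3 with upper quartile scaling and 0 without a scaling factor, and fell to 2 without sham replicate 3, 3 without EV replicate 1 and 1 without EV replicate 2 or 3. In the PI3K-AKT group of 8 genes, 3 were called higher (1 without a scaling factor or without EV replicate 2) and 1 lower, and the catalytic subunit genes Pik3cd and Pik3cb went in opposite directions. Pik3cd, encoding the leukocyte subunit p110δ, rose from 253, 257 and 240.0 CPM to 703, 715 and 760.3 CPM (log2 fold change 1.54, SE 0.0570, adjusted p = 5.75e-08). Pik3cb, encoding p110β, fell from 188, 172 and 197 CPM to 125, 120.1 and 118 CPM (log2 fold change -0.62, adjusted p = 5.93e-05). The regulatory subunit gene Pik3r1 was called higher by 0.37 on the log2 scale, but not without a scaling factor (adjusted p = 0.0271) or without EV replicate 2 (0.0134).

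Genes listed as receptor-binding proteins and inhibitors held the highest fold changes among the pathway genes examined. Whether these receptors were behind the changes was not tested. Of 11 receptor-binding proteins and inhibitors, 7 were called higher and 2 lower (1 lower without any of the EV replicates in turn), with a median log2 fold change of 0.58. Socs1, whose product inhibits JAK kinases, stood at 4.0, 5.64 and 2.68 CPM in sham and at 129.7, 141 and 151 CPM with EVs, a 34.3-fold rise (25.6 to 45.9, adjusted p = 5.75e-08). Cish, a STAT5 target whose product CIS binds cytokine receptors, went from 25.1, 21.7 and 23.3 CPM to 485, 468 and 497 CPM, or 20.6-fold (18.4 to 23.2, adjusted p = 3.64e-10). Socs3 rose 13.7-fold (11.7 to 16.0, adjusted p = 1.03e-08). These genes were low in every sham library and high in every EV-treated one.

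Of 12 genes listed as targets of the pathway, 10 were called higher and 1 lower, with a median log2 fold change of 1.02. Pim2 and Pim1 encode survival kinases and Osm the cytokine oncostatin M. Pim2 went from 10.2, 7.67 and 14.6 CPM to 117, 114 and 124 CPM (log2 fold change 3.45, SE 0.180, adjusted p = 5.67e-07). Osm went from 39.7, 32.7 and 41.6 CPM to 410.3, 354 and 394 CPM (3.34, adjusted p = 2.08e-08), and Pim1 rose 3.80-fold (adjusted p = 2.04e-08). The gene called lower was Fos (log2 fold change -0.97), an immediate early gene, and the gene not called was Ccnd2 (0.48, adjusted p = 0.244), a cyclin gene; both were named after their values were seen. The list was written with earlier results of these data known and is not independent evidence of its direction.

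Receptors of other cytokine families give the measure for the subunits. Of 28 tested genes of the γ chain and IL-4, gp130 and IL-12, homodimeric and class II families, 4 were called higher and 5 lower. Over all genes, 12.1% were called higher and 11.6% lower. The median log2 fold change of the 28 genes was -0.18, and without EV replicate 3 the number of them called higher was 2. Among these and the 5 subunit genes, 33 in all, Csf2rb, Csf2rb2 and Csf2ra had the 3 highest levels per length in both groups. Il5ra was 8th in sham and 12th with EVs, and Il3ra 12th and 14th. By log2 fold change, Csf2rb was 2nd of the 33 and Csf2rb2 5th.

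Ahead of Csf2rb was Il10ra, the ligand-binding chain for IL-10, which rose from 15.2, 23.1 and 20.2 CPM to 95.8, 102 and 99.4 CPM (log2 fold change 2.35, SE 0.131, adjusted p = 7.96e-07). Il4ra, the chain that binds IL-4, rose from 64.5, 76.6 and 70.3 CPM to 160.1, 165 and 167 CPM (1.22, adjusted p = 1.33e-06), and its partner Il2rg, the common γ chain, from 37.8, 41.0 and 51.3 CPM to 65.2, 64.6 and 66.5 CPM (0.59, adjusted p = 0.00156, and 0.01003 without EV replicate 3). For each of these chains, all of them called higher, every EV-treated library lay above every sham-treated one, as for 24.8% of all genes. Receptor genes also fell, among them Il6ra for IL-6 (log2 fold change -2.70), Il7r for IL-7 (-2.15), Csf3r for G-CSF (-1.83) and Ifnar2 of the type I interferon receptor (-0.67). Il11ra1, for IL-11, was also called lower (-1.17, adjusted p = 0.00384), a call lost without sham replicate 2 or 3 or EV replicate 1 or 3 (adjusted p = 0.0110 to 0.0240). The shared signaling chain gp130, encoded by Il6st, was not called, with a log2 fold change of 0.18 (-0.26 to 0.63). The 2 homodimeric receptor genes tested were not called, nor was the 1 tested gene of the receptors for the cytokines used early in the culture.

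**Figure D4:**
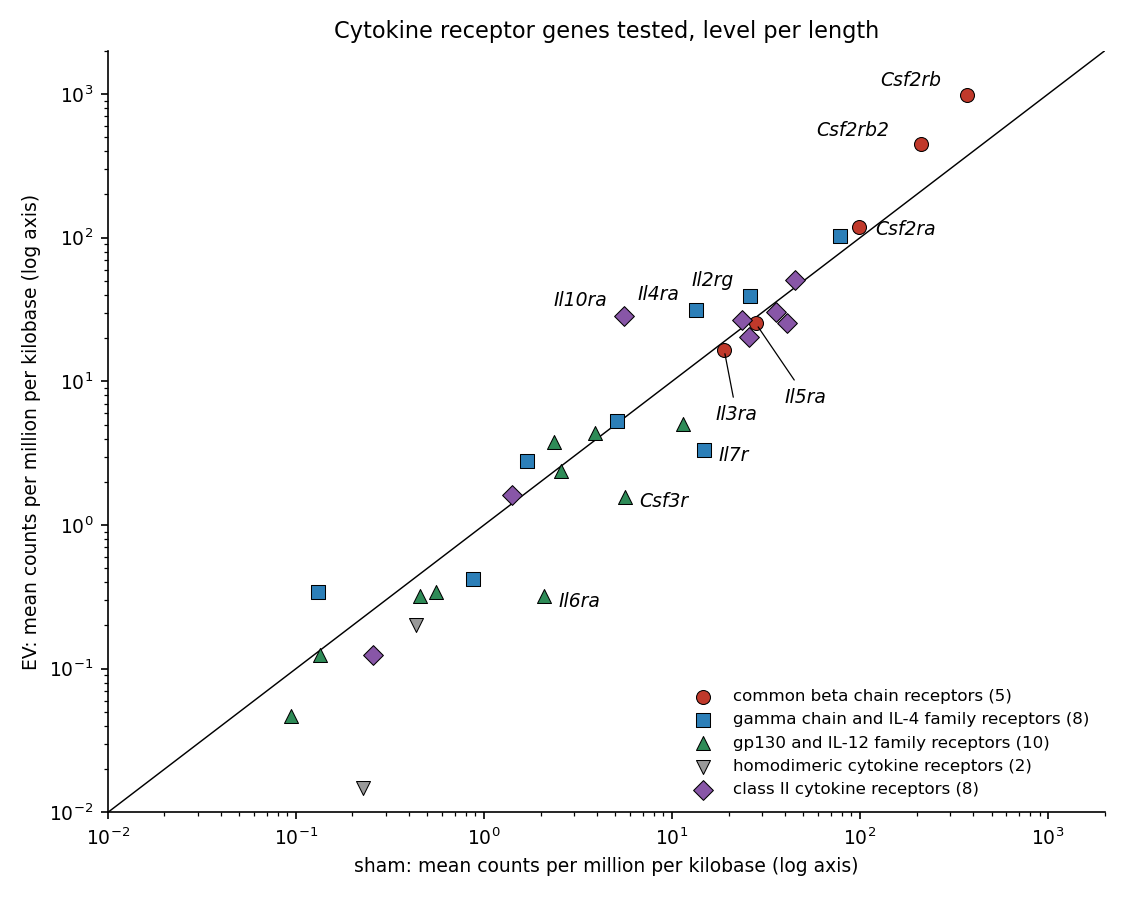
Mean level per length of 33 cytokine receptor genes in EV-treated against sham-treated eosinophils, in CPM per kilobase on log axes, by family; genes on the diagonal had the same level in both groups. Csf2rb and Csf2rb2 lie at the upper right above the diagonal, with 372 and 210.2 in sham and 991 and 448 with EVs, and Il3ra and Il5ra lie close to it.

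Of 9 transcription factor genes listed as candidate regulators of receptor genes, 5 were called higher and 1 lower, beside 12.1% and 11.6% of all genes. Gata2, a factor of eosinophil, basophil and mast cell lineages, rose from 84.6, 72.7 and 82.2 CPM to 178, 160.4 and 166 CPM (log2 fold change 1.07, adjusted p = 3.58e-06), and Runx1 rose to the same extent (1.07, adjusted p = 3.58e-06). Cebpa, a myeloid factor, fell from 98.8, 151 and 135 CPM to 24.4, 27.6 and 26.4 CPM (-2.29, adjusted p = 1.49e-06). Whether any of them bears on the subunit genes was not tested.

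The genes most like each β chain gene were found by the Euclidean distance between log2 CPM profiles over the 6 libraries, each centred on its own mean, among all genes tested. For Csf2rb they were Pira13, one of a family of closely similar activating receptor genes whose reads are hard to assign, Gramd4, Cd300lf, a CD300 family receptor gene, Il1rn, encoding the IL-1 receptor antagonist, and Ly6e, at distances of 0.154 to 0.192. For Csf2rb2 they were Ccr3, encoding the eotaxin receptor of eosinophils, Rnf19b, Sema7a, Lpcat3 and Tuba1a, at distances of 0.129 to 0.155. The neighbors of Csf2rb had log2 fold changes of 1.37 to 1.50 and those of Csf2rb2 of 1.09 to 1.13, as the measure selects for. The β chain genes were 0.396 apart, which made Csf2rb2 the 95th nearest gene to Csf2rb, and Csf2rb the 209th nearest to Csf2rb2. With 6 libraries in 2 groups, likeness by this measure mostly reflects the size of the group difference.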

How the data were processed

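Bulk poly(A) RNA-seq of 3 EV-treated and 3 media-treated (sham) eosinophil cultures was analysed from deposited gene tables. According to the submitters' processing notes and the study's methods, reads were checked with FastQC, trimmed with Cutadapt, quantified with Salmon against mm10 and compared with DESeq2. Versions, annotation and strandedness were not given in the sources used here. The deposited tables hold an estimated count per gene, often not a whole number, for 16254 genes, and a normalized signal that the authors obtained by dividing counts by a size factor per sample. A deposited table of the authors' own comparison, with fold changes and p-values, was not used.

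Estimated counts were rounded, filtered with filterByExpr (13498 genes) and tested with edgeR 4.0.16 in R 4.3.3 (TMM scaling, quasi-likelihood test, Benjamini-Hochberg adjustment over all genes, call at an adjusted p under 0.01). Confidence intervals are 95% intervals of the fitted log2 fold change. Log2 CPM profiles used a prior count of 2. Lengths and coordinates came from GENCODE vM21 (GRCm38), with which the stated build mm10 corresponds, and promoters from RefSeq. The fit was tested on simulated data before use. Libraries totalled 23697620 to 37874426 counts, so that for the subunit genes the spread between cultures and not counting error sets the precision. The labels call the samples biological replicates.

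The 5 subunit genes, the pathway and marker lists and the tests were chosen with earlier results of these data known. Named genes are the 5 subunits, up to 3 called genes with the largest absolute log2 fold change in each pathway list, the 3 ligands, Jak1, Jak2, Stat5a, Stat5b, Il2rg, Il4ra and Il6st, the 3 nearest protein-coding genes on each side of the β chain pair, and the 5 genes nearest in profile to each β chain gene. Some genes that this rule names are left out of the text. Alternatives were other scalings, no filter, DESeq2 1.42.0, limma 3.58.1 on log2(normalized count + 1), the replicate number as a block, thinned libraries, the summed pair and leaving out each library.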

Additional observations from a re-analysis of the deposited data

How the results depend on the processing

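Csf2rb and Csf2rb2 kept their direction and their call under all alternatives run. Leaving out each library gave log2 fold changes of 1.35 to 1.48 for Csf2rb, 1.04 to 1.16 for Csf2rb2, 0.24 to 0.32 for Csf2ra, -0.28 to -0.12 for Il3ra and -0.20 to -0.09 for Il5ra. Csf2ra lost its call with upper quartile scaling (0.22, adjusted p = 0.0215) and without a scaling factor (0.12), and Il5ra was called lower without one (-0.29), so that 1 subunit gene was then called lower. In the fits without a library, Csf2ra was called in 1 of 6, and 2 or 3 subunit genes were called higher.

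Without a scaling factor, 1036 genes in all were called higher, and 8 other cytokine receptor genes lower. Leaving out each library gave 1071 to 1833 genes called higher and 1018 to 1698 lower, with 2 to 5 other cytokine receptor genes called higher; the lowest counts came without EV replicate 3, and 1044 were called lower without EV replicate 2. The fits without a library had fewer samples. Counts of calls in the single gene lists stayed within 1.5 times in 530 comparisons with an alternative and moved by more in 30, and the cause was not tested. DESeq2 called 1977 genes higher and 1953 lower.

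Both groups carry replicate numbers 1 to 3. Deviations from the group means correlated by 0.117, 0.0846 and 0.0371 between same-numbered samples and by -0.116 to 0.0487 between the others. Each sham replicate correlated best with the EV replicate of its number, but EV replicate 3 correlated better with sham replicate 2 (0.0487). These values do not settle whether the samples were paired, and the main test treated them as sharing only a number. With the replicate number as a block, 1794 genes were called higher and 1781 lower, and the subunit genes had log2 fold changes of 1.41 (Csf2rb), 1.09 (Csf2rb2), 0.27 (Csf2ra), -0.18 (Il3ra) and -0.14 (Il5ra), with no change of a call. Paired by number, the smallest exact p of a ratio is 0.25. The order by level per length under coding lengths taken from RefSeq proteins was not run, and the annotation's coding length, chosen after seeing the data, replaced it.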
